A study of Mus musculus with 32 samples.

Results

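The genes described here are 6 genes of the circadian clock, Arntl, Npas2, Clock, Nfil3, Cry1 and Cry2, out of 54532 genes counted in the mouse kidney. They were taken by name, as a group called the clock positive arm, because Npas2 was known to be lower in these kidneys after cisplatin. Differences from Day 0, and the differences between the sexes in them, are therefore given as a description, with standard errors and without p-values. The levels of Npas2 chose the group, so its differences between later days and between the sexes are given without p-values as well. All 6 genes passed the filter on low counts in every comparison.

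The circadian clock is a feedback loop of transcription factors that runs in nearly every cell, the tubular cells of the kidney included. ARNTL (also called BMAL1) pairs with CLOCK or with its paralog NPAS2, and the pair switches on genes that carry an E-box. Among those genes are the PER and CRY repressors, which shut the pair down, and the nuclear receptors of the REV-ERB family (Nr1d1 and Nr1d2), which with the ROR receptors act on a second element, the RORE, in genes such as Arntl, Npas2 and Nfil3. NFIL3 (E4BP4) is a repressor at the D-box, where DBP, TEF and HLF activate. Arntl, Npas2 and Clock thus encode activators, whereas Nfil3, Cry1 and Cry2 encode repressors, and the name of the group holds for only some of its members.

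Kidney RNA was sequenced from 32 wild-type C57BL/6 mice of 6 to 8 weeks, 1 mouse per library, in 8 groups of 4 mice. Each sex gave 1 group of healthy, uninjected animals (Day 0) and 3 groups that had received 20 mg/kg cisplatin in 1 intraperitoneal injection and were taken on Day 2, Day 3 or Day 5. Cisplatin is a platinum drug that injures the proximal tubule. No group injected with vehicle is described, so that cisplatin cannot be told apart from the injection itself or from the days passed. The labels list cisplatin for the Day 0 females and no treatment for the Day 0 males, and the study's account of both as healthy was followed. The hour at which kidneys were collected is not given in the sources used here. Levels of clock genes change over the day, and the hour of collection cannot be told apart from day or sex in any comparison below.

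Total counts lay between 16502107 and 35961325 per library. Mitochondrial genes took 4.494% to 23.97% of the counts at Day 0 and 4.865% to 14.03% at Day 2 and Day 3, but 42.49% to 79.76% in the male Day 5 mice and 9.302% to 77.88% in the female Day 5 mice. In 1 library, labelled as mouse 1 of the male Day 5 group, 4153 counts fell on Xist, the RNA of the inactive X chromosome, and 387 on 4 Y-linked genes. The male Day 5 differences are also given without this library. Fewer counts from genes of the other sex lay in other libraries, with 221 Y-linked counts in female Day 0 mouse 1, against 0 in every female mouse of the later days, and 242 and 260 Xist counts in male Day 0 mouse 4 and male Day 5 mouse 2. Markers of the proximal tubule, thick limb, collecting duct and podocyte were present in all 8 groups. The summed level of 3 erythroid genes was 365 to 2400 CPM (counts scaled to a common library size) at Day 0, 0.811 to 149 at Day 2 and Day 3, 185 to 4940 in male Day 5 mice and 13 to 1360 in female Day 5 mice. The 4 proximal tubule markers summed to 3550 to 5980, 4400 to 6970 and 252 to 3060 CPM in male mice of Day 2, Day 3 and Day 5, against 6290 to 7100 in male Day 0 mice. In female mice of these days they summed to 2160 to 6900, 2050 to 5500 and 1560 to 5040 CPM, against 5460 to 7970 in female Day 0 mice. Hepatocyte markers (4 genes) summed to as much as 9400 CPM in 1 female Day 0 library, and 4 adrenal cortex markers to 13.9 to 967 in female Day 3 mice and 227 to 655 in female Day 5 mice against 2.98 to 127 at female Day 0. Whether these shifts have a part in the results below was not tested. In whole kidney, fewer cells of a type and less RNA per cell cannot be told apart.

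The promoters were read for the elements through which the clock acts, because members with a shared element can be set beside each other in the values that follow. RefSeq promoter windows on GRCm38.p6, from 250 bases before to 50 bases after each start, were found for all 6 genes, 9 windows in all. Both strands were searched for the E-box CACGTG, its variant CACGTT, the RORE core TAGGTCA and the D-box TTANGTAA. The stretches that hold a match are printed along the strand of the gene, with the matched letters in capitals.

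Arntl (chr7:113207531-113207557, plus strand): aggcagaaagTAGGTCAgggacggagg
Nfil3 (chr13:52981035-52981061, minus strand): cgctcggaacTGACCTActaacacaca
Cry1 (chr10:85185107-85185135, minus strand): gaAACGTGaggtgccggtggtCACGTGgg
Cry2 (chr2:92434220-92434245, minus strand): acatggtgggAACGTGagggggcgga

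Distances are from the RefSeq starts, which need not be the ends of the gene ranges given further on. The RORE core began 30 bases after the downstream one of the 2 starts of Arntl and 12 bases before that of Nfil3, where it ran on the opposite strand. The E-box CACGTG began 60 bases before the start of Cry1, and CACGTT on the opposite strand began 79 bases before Cry1 and 166 bases before Cry2. No 2 matches overlapped. Over 32851 promoter windows of the same length, 7.15% held CACGTG, 4.68% CACGTT, 2.61% TAGGTCA and 2.32% TTANGTAA. The windows of Npas2 and Clock held none of the 4 motifs. These matches are matches of letters and show no binding.

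Npas2 and Arntl were the members with the widest range between group means as a fold, and both were at their highest in male Day 0 mice and at their lowest in male Day 2 mice. Nfil3 also had its lowest mean in male Day 2 mice, whereas Cry1 and Cry2 had their highest mean there. In the order of the 8 group means, only male over female Day 0 mice for Npas2, female over male Day 2 mice for Arntl and male over female Day 3 mice for Clock were neighbours whose ranges did not overlap. Per length of transcript, the FPKM (fragments scaled for gene length and library size) in male Day 0 mice were 5.51 ± 2.57 for Nfil3, 3.48 ± 1.2 for Npas2, 2.48 ± 0.404 for Clock, 2.15 ± 0.717 for Cry2, 1.95 ± 0.698 for Arntl and 0.83 ± 0.396 for Cry1 (mean ± SD, n = 4). In male Day 2 mice Cry2 had the highest mean, at 4.91 ± 0.547 FPKM, followed by Clock at 2.18 ± 0.476, Cry1 at 1.98 ± 0.674, Nfil3 at 1.95 ± 0.367, Arntl at 0.222 ± 0.101 and Npas2 at 0.199 ± 0.0586. The mean levels of Npas2 and Clock, which compete for the same partner, thus stood at 3.48 and 2.48 FPKM in male Day 0 mice and at 0.199 and 2.18 FPKM at Day 2.

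**Figure D1:**
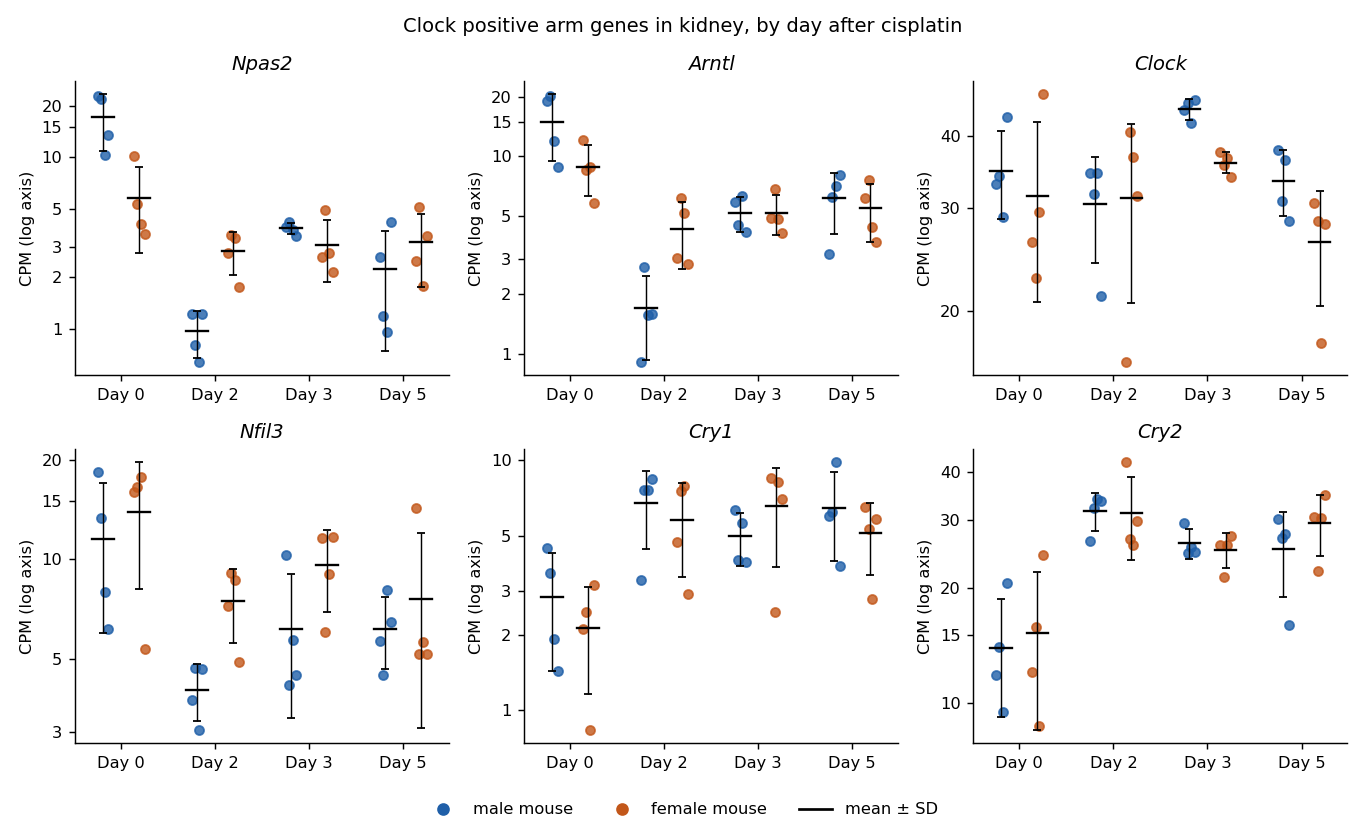
Level of each of the 6 genes in CPM (log axis) by day, for male mice (blue) and female mice (orange). Each point is 1 mouse, and the bar and whiskers are the mean ± SD of 4 mice. Male Npas2 lies at 10.3 to 22.7 CPM at Day 0 and at 0.643 to 1.23 CPM at Day 2.

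Npas2 (ENSMUSG00000026077, chr1:39193731-39363236, plus strand, GRCm38) encodes a PAS-domain activator that pairs with ARNTL. Its level stood at 22.7, 22, 10.3 and 13.5 CPM in the 4 male Day 0 mice and at 1.23, 0.809, 0.643 and 1.22 CPM in the 4 male Day 2 mice. The groups did not overlap, and the highest Day 2 mouse was far under the lowest Day 0 mouse. The log2 fold change was −4.10 (SE 0.351), or 17.2-fold lower. At Day 3 the male mice had 3.96, 4.21, 3.80 and 3.50 CPM, all 4 above every Day 2 mouse and below every Day 0 mouse, with a log2 fold change from Day 0 of −2.14 (SE 0.262). At Day 5 they had 2.63, 1.19, 0.967 and 4.21 CPM, again below every Day 0 mouse and overlapping both Day 2 and Day 3, with a log2 fold change from Day 0 of −2.84 (SE 0.472). Without the library labelled male Day 5 mouse 1 this was −2.90 (SE 0.553). The Day 5 values rest on 47, 8, 6 and 30 counts per mouse.

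Female mice were lower than male mice at Day 0. Their Npas2 levels at Day 0 were 10.2, 5.33, 4.12 and 3.56 CPM, so that 1 mouse was nearly as high as the lowest male and the other 3 were near the male Day 3 level. At Day 2 the females had 2.77, 3.54, 3.39 and 1.77 CPM, just under every Day 0 female, with a log2 fold change of −1.01 (SE 0.396). Day 3 gave 2.63, 4.91, 2.77 and 2.14 CPM, and Day 5 gave 2.48, 5.17, 1.78 and 3.47 CPM. Both of these groups overlapped Day 0, and the log2 fold changes were −0.91 (SE 0.405) and −0.85 (SE 0.461). The female values leaned on Day 0 mouse 1, the highest and the one with 221 Y-linked counts, since without it the 3 log2 fold changes were −0.57, −0.47 and −0.44.

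Arntl (ENSMUSG00000055116, chr7:113207465-113314126, plus strand, GRCm38) encodes the shared partner in the activating pair. The male Day 0 mice had 19.1, 20.3, 11.9 and 8.80 CPM and the male Day 2 mice 0.907, 2.75, 1.57 and 1.59 CPM. These groups did not overlap, and the log2 fold change was −3.12 (SE 0.398), or 8.70-fold lower. The male Day 3 mice stood at 5.84, 4.48, 6.31 and 4.12 CPM, with a log2 fold change from Day 0 of −1.53 (SE 0.287). The male Day 5 mice stood at 3.19, 6.24, 7.09 and 8 CPM, with −1.24 (SE 0.371), or −0.99 (SE 0.331) without the library labelled mouse 1. Every male Day 3 and Day 5 mouse was above every Day 2 mouse and below every Day 0 mouse.

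In female mice, Arntl was 12.1, 8.52, 8.87 and 5.83 CPM at Day 0 and 3.06, 6.12, 5.14 and 2.85 CPM at Day 2. The groups overlapped through Day 0 mouse 4 and Day 2 mouse 2. The log2 fold change at Day 2 was −1.04 (SE 0.341). Female Day 3 mice had 4.88, 6.85, 4.81 and 4.10 CPM and female Day 5 mice 6.16, 7.58, 4.39 and 3.69 CPM, with log2 fold changes of −0.79 (SE 0.273) and −0.69 (SE 0.339). All 6 differences of Arntl from Day 0 were below 0, as were all 6 of Npas2, and in both genes the male difference had the larger size on each day.

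Clock (ENSMUSG00000029238, chr5:76209868-76304792, minus strand, GRCm38) encodes the other partner of ARNTL. Its group means lay between 26.3 and 44.5 CPM, and its 6 log2 fold changes from Day 0 lay between −0.26 and 0.35. The male Day 3 mice were highest, at 44.3, 45.6, 42.1 and 46.2 CPM. The male Day 0 mice had 33.0, 34.2, 29 and 43.1 CPM, so that Day 0 mouse 4 lay within the Day 3 range. No group of either sex was apart from its Day 0 group, and the sign of the male Day 5 and of the female Day 2 and Day 5 differences changed with single mice left out (between −0.06 and 0.11, −0.16 and 0.26, and −0.39 and 0.01).

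Nfil3 (ENSMUSG00000056749, chr13:52967209-52981073, minus strand, GRCm38) encodes the D-box repressor and is the member other than Arntl with a RORE core in its window. The male Day 0 mice had 18.4, 13.3, 7.99 and 6.16 CPM, and the male Day 2 mice had 3.75, 4.69, 3.05 and 4.66 CPM. All 4 Day 2 mice were below all 4 Day 0 mice, with a log2 fold change of −1.49 (SE 0.345). At Day 3 and Day 5 the male log2 fold changes were −0.89 (SE 0.403) and −0.83 (SE 0.371), with overlapping groups. Without Day 0 mouse 1 they were −0.59 and −0.52. The female Day 0 mice had 16.0, 16.5, 17.7 and 5.37 CPM, and the low mouse 4 lay inside the ranges of all later female groups except Day 3, which ran from 6.03 to 11.7 CPM. The female log2 fold changes were −0.89 (SE 0.370) at Day 2, −0.55 (SE 0.376) at Day 3 and −0.87 (SE 0.445) at Day 5. Without Day 0 mouse 4 they were −1.16 (SE 0.251), −0.82 (SE 0.237) and −1.13 (SE 0.366). Leaving out female Day 5 mouse 1 instead gave −1.36 at Day 5.

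Cry1 (ENSMUSG00000020038, chr10:85131700-85185064, minus strand, GRCm38) and Cry2 (ENSMUSG00000068742, chr2:92403646-92434043, minus strand, GRCm38) encode the cryptochromes that block the activating pair, and both were higher than at Day 0 in all 6 comparisons. Cry2 had 11.8, 14.0, 9.45 and 20.5 CPM in the male Day 0 mice and 26.4, 32.3, 34.1 and 33.7 CPM in the male Day 2 mice. The groups did not overlap, and the log2 fold change was 1.2 (SE 0.235). The male Day 3 mice, at 29.5, 24.6, 25.5 and 24.8 CPM, were also all above Day 0, with 0.91 (SE 0.224). The male Day 5 mice had 30.2, 26.9, 27.6 and 16.0 CPM, where mouse 4 lay within the Day 0 range, with 0.92 (SE 0.276).

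Female Cry2 levels were 12.0, 15.8, 8.67 and 24.3 CPM at Day 0 and 42.5, 26.8, 25.9 and 29.9 CPM at Day 2. All Day 2 females were above all Day 0 females, though Day 0 mouse 4 came close, and the log2 fold change was 1.04 (SE 0.320). At Day 3 and Day 5 it was 0.71 (SE 0.292) and 0.95 (SE 0.309), and the ranges of 21.3 to 27.3 CPM and 22.1 to 35.0 CPM overlapped Day 0 through that mouse. Cry1 was the least abundant member per length at Day 0, with 4.45, 3.55, 1.93 and 1.44 CPM in male mice and 2.11, 2.47, 0.833 and 3.16 CPM in female mice. Its later group means lay between 4.98 and 6.74 CPM, and its log2 fold changes between 0.81 (SE 0.366, male Day 3) and 1.59 (SE 0.486, female Day 3). At least 1 later mouse lay within the Day 0 range in each of the 6 comparisons of Cry1. Without the library labelled male Day 5 mouse 1, the male Day 5 log2 fold changes were 0.83 (SE 0.307) for Cry2, 1.3 (SE 0.491) for Cry1, −0.77 (SE 0.417) for Nfil3 and −0.04 (SE 0.194) for Clock.

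**Figure D2:**
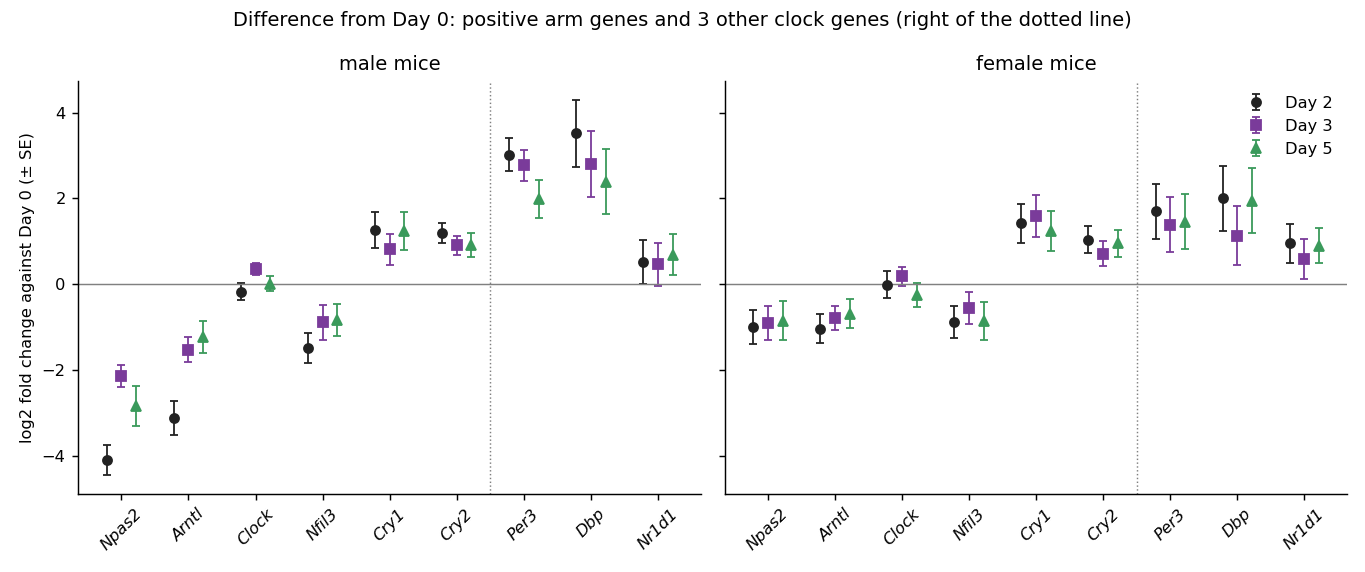
Log2 fold change from Day 0 (y axis, ± SE of the edgeR fit) of the 6 genes and, right of the dotted line, of Per3, Dbp and Nr1d1, in male mice (left) and female mice (right). Circles, squares and triangles are Day 2, Day 3 and Day 5. Npas2 reaches −4.10 in male mice at Day 2 and −1.01 in female mice, while Cry1 and Cry2 lie above 0 on each day in both sexes.

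At an adjusted p under 0.05 (edgeR quasi-likelihood test, Benjamini-Hochberg over all genes tested), the fits counted 3 of 6 members as different from Day 0 in male mice at each of Day 2, Day 3 and Day 5. Of all genes tested, 3.16%, 24.5% and 19.2% were called in either direction in these comparisons. In female mice the count was 0 of 6 at Day 2, Day 3 or Day 5, where 1.93%, 5.54% and 0.258% of all genes were. By group ranges, 4, 3 and 2 members did not overlap Day 0 in male mice and 2, 0 and 0 in female mice, against 24.4%, 38.3%, 27.3%, 15.3%, 19.3% and 8.6% of all genes. These counts are no test of the members, since the genes were picked on this kind of comparison, and nothing is read from them, and the 3 comparisons within a sex share their Day 0 mice. The male count was 1 at Day 2 without Day 0 mouse 1 or 2 or Day 2 mouse 3 or 4, where 13 to 20 genes in all were called, and 1 at Day 5 without Day 0 mouse 1 or 2 or Day 5 mouse 1, 2 or 3, where 5.38% to 26.0% of all genes were. The female counts of 0 were 5 at Day 2, 5 at Day 3 and 1 at Day 5 without Day 0 mouse 4, where 28.3%, 39.1% and 12.6% of all genes were called.

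The Day 0 mice numbered 4 stood apart from the other Day 0 mice of their sex in several clock genes, and were singled out after their values were seen. Arntl was lowest of the 4 in mouse 4 of both sexes, at 8.80 CPM in males and 5.83 CPM in females, and so was Nfil3. Clock and Cry2 were highest in mouse 4 of both sexes. Dbp, an output of the ARNTL pair at E-boxes, was 7.65, 7.65, 1.13 and 31.6 CPM in the male Day 0 mice and 14.1, 18.4, 5.10 and 81.6 CPM in the females. Nr1d1, the gene of REV-ERB alpha, was 37.7, 28.6, 16.4 and 106 CPM in males and 34.5, 45.6, 15.5 and 82.1 CPM in females. In each of these 4 sets mouse 4 was highest and mouse 3 lowest. Mouse 4 also had the largest mitochondrial share of its Day 0 group in both sexes, 23.97% and 19.73%, and whether this has a part in its clock values was not tested.

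The later days were also compared with each other. In male mice at Day 3 against Day 2, all 4 Day 3 mice lay above all 4 Day 2 mice for Npas2, Arntl and Clock. The log2 fold changes were 1.97 (SE 0.219) for Npas2, 1.60 (SE 0.307) for Arntl and 0.54 (SE 0.150) for Clock. Arntl and Clock did not pass the test (adjusted p = 0.425 and 0.542, edgeR), and Npas2 is given without a p, since its Day 2 level is part of the fall it was picked for. In this comparison 0 of 16232 genes (0.0%) passed, 1410 had an unadjusted p under 0.05, and so did 3 of the other 5 members, while 6.45% of genes had groups that did not overlap. The third was Cry2, at −0.28 (SE 0.101, adjusted p = 0.571). Nfil3 and Cry1 differed by 0.61 (SE 0.291) and −0.43 (SE 0.285), and Cry1 by −0.67 (SE 0.191) without male Day 2 mouse 1. The Wald test of DESeq2 called Arntl, whose adjusted p ran from 0.000595 to 0.825 over all alternatives. The share of all genes that DESeq2 called in this comparison is not given.

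From Day 3 to Day 5, Clock fell in male mice. The Day 3 mice had 42.1 to 46.2 CPM and the Day 5 mice 37.9, 30.9, 36.4 and 28.6 CPM, with no overlap (as for 41.5% of genes). The log2 fold change was −0.32 (SE 0.112, adjusted p = 0.0478, edgeR), in a comparison in which 37.9% of 15654 genes were called and mitochondrial genes and erythroid genes differed as given above. The call was lost without any 1 of the 4 Day 3 mice or Day 5 mice 2 and 4, with adjusted p between 0.0835 and 0.120. Fits with no low-count filter, over all 8 groups and with the mouse number as a replicate block lost it too. So did a further threshold of 1.5 on the log2 fold change. Over all alternatives the adjusted p of Clock ran from 0.00947 to 0.186. In female mice Clock stood at 37.5, 35.7, 36.6 and 34.0 CPM at Day 3 and at 30.7, 28.6, 17.6 and 28.2 CPM at Day 5, also with no overlap (7.4% of genes), and the difference of −0.44 (SE 0.169) did not pass (adjusted p = 0.408). The other 5 members differed by −0.66 to 0.46 in male mice, or by −0.76 to 0.53 without the library labelled Day 5 mouse 1, where Clock differed by −0.41 (SE 0.108, adjusted p = 0.00947), and by −0.35 to 0.25 in female mice, and none of these passed, Npas2 aside, whose p is not given. Between Day 2 and Day 3 the 6 members differed by −0.32 to 0.35 in female mice. In both female comparisons edgeR called 0.0% of genes, with 678 genes under an unadjusted p of 0.05 at Day 3 against Day 2 and 1973 at Day 5 against Day 3.

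**Figure D3:**
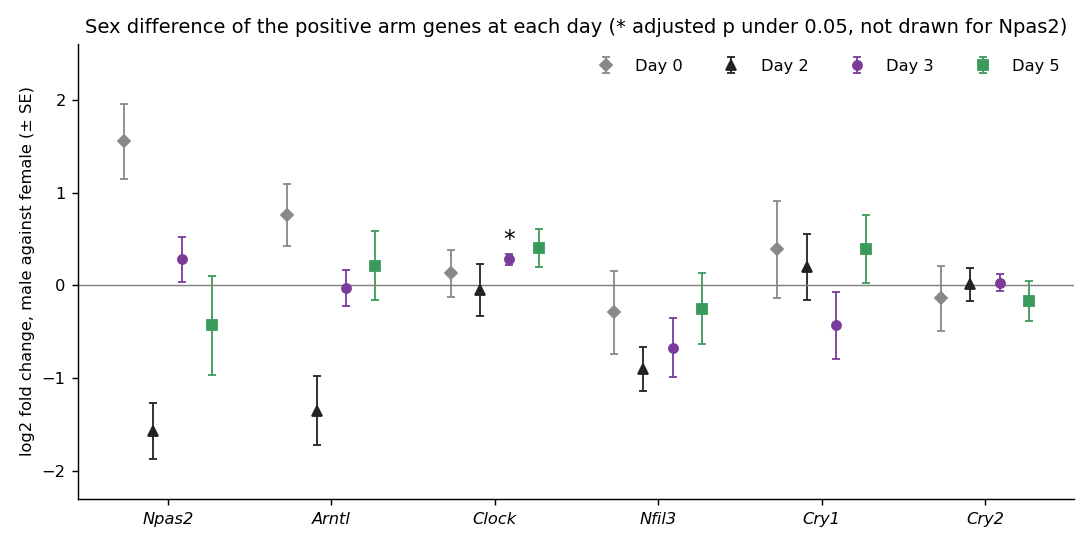
Log2 fold change of male against female mice (y axis, ± SE of the edgeR fit) for the 6 genes on each of the 4 days. An asterisk marks an adjusted p under 0.05, reached by Clock at Day 3 (0.28), and is not drawn for Npas2, which lies at 1.55 on Day 0 and −1.57 on Day 2.

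Male and female mice were compared at each day. At Day 2, Npas2 was lower in male mice, with 0.643 to 1.23 CPM against 1.77 to 3.54 CPM in female mice and no overlap. The log2 fold change was −1.57 (SE 0.305), given without a p because the low male values are those the gene was picked for. Arntl and Nfil3 were also lower in every male than in every female at Day 2, which held in either direction for 8.96% of all genes. Their log2 fold changes of −1.35 (SE 0.370) and −0.90 (SE 0.234) did not pass (adjusted p = 0.110 and 0.0962, edgeR), in a comparison in which 1.47% of 16608 genes were called. Clock, Cry1 and Cry2 differed by −0.05 to 0.20. With single mice left out the difference of Npas2 lay between −1.74 and −1.42. The Wald test of DESeq2 called Arntl and Nfil3, and the fit with no filter on low counts called Arntl. The shares of all genes called in these fits are not given. Over the alternatives, mice left out included, the adjusted p ran from 0.0103 to 0.286 for Arntl and from 0.00985 to 0.481 for Nfil3.

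Among the separate mice of Day 0 the sexes stood the other way round for Npas2, with 10.3 to 22.7 CPM in male mice and 3.56 to 10.2 CPM in female mice. The log2 fold change was 1.55 (SE 0.401), in a comparison in which 0.449% of 16042 genes were called and 6.17% had groups that did not overlap. Arntl differed by 0.76 (SE 0.333, adjusted p = 0.621) with overlapping groups, and the other 4 by −0.29 to 0.39. At Day 3, Clock was higher in male mice, at 42.1 to 46.2 CPM against 34.0 to 37.5 CPM, with a log2 fold change of 0.28 (SE 0.0610, adjusted p = 0.0122). This was a 1.21-fold difference, in a comparison in which 21.3% of 16673 genes were called and 25.7% had groups that did not overlap, and it was not called in the fit over all 8 groups. Without male Day 3 mouse 1 Nfil3 was called as well, and without female Day 3 mouse 2 Cry1 was. The shares of all genes called in these fits are not given, and nothing is read from these calls. Without female Day 3 mouse 2, 10 of the other clock genes were called, in place of 6. At Day 5 no member was called among 15237 genes (0.276% called, 3094 genes and none of the members at an unadjusted p under 0.05), and the differences lay between −0.43 and 0.40, or between −0.45 and 0.51 without the library labelled male Day 5 mouse 1.

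The difference between the sexes in the change from Day 0 was estimated as an interaction of sex and day, which holds the change from Day 0 that the genes were picked on and so is given without p-values. For Npas2 the male change was lower than the female change by 3.13 (log2 difference −3.13, SE 0.535) at Day 2, −1.26 (SE 0.497) at Day 3 and −1.99 (SE 0.668) at Day 5. For Arntl the interaction was −2.12 (SE 0.526) at Day 2, −0.78 (SE 0.406) at Day 3 and −0.55 (SE 0.499) at Day 5. Without the library labelled male Day 5 mouse 1 the Day 5 values were −2.08 (SE 0.725) for Npas2 and −0.33 (SE 0.472) for Arntl. Across all genes, the share called by edgeR was 0.0% of 17467 at Day 2, where 738 had an unadjusted p under 0.05, 0.0114% at Day 3 and 0.243% at Day 5. Without female Day 0 mouse 1 the interaction of Npas2 at Day 2 was −3.51. The other 4 members had interactions between −0.81 and 0.25 over the 3 days.

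The rest of the clock was read from a list of 20 genes, namely 6 of the PER, CIART and BHLHE repressors, 5 nuclear receptors that act at the RORE, the 3 D-box activators, 5 modifiers of PER and CRY stability, and Arntl2. In male mice 8 of 19 tested rose and none fell at Day 2, 10 rose and none fell at Day 3, and 4 rose and none fell at Day 5. In female mice 1 of 20 rose at Day 2 and none was called at Day 3 or Day 5, with 8, 6 and 7 of the 20 at an unadjusted p under 0.05, beside 25.3%, 30.7% and 15.7% of all genes tested. Higher calls made up 1.81%, 11.4%, 8.98%, 0.774%, 1.26% and 0.185% of all genes in these 6 comparisons. The median log2 fold change of the list was 0.71, 0.65 and 0.76 in male mice and 0.78, 0.53 and 0.68 in female mice, beside 0.02 to 0.04 over all genes. The male count was 2 at Day 2 without Day 0 mouse 1 or 2 or Day 2 mouse 2 or 3 and 4 without Day 2 mouse 4, in fits that called 13 to 20 genes in all. At Day 5 it was 1 without Day 0 mouse 1 or 2 or Day 5 mouse 3, where 6.77%, 6.4% and 5.9% of all genes were called. It was 7 without Day 0 mouse 3, where 19.9% of all genes were. The female counts became 11, 10 and 10 without Day 0 mouse 4, where the shares of all genes called rose as given above, and the 1 call at Day 2 was lost without Day 0 mouse 1 or 2 or any 1 Day 2 mouse.

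Dbp rose in male mice at Day 2, from the 1.13 to 31.6 CPM given above for Day 0 to 170, 114, 138 and 123 CPM, with no overlap. The log2 fold change was 3.52 (SE 0.780, adjusted p = 0.0483, edgeR), of the opposite sign to that of Arntl in the same mice. At Day 3 it was 2.81 (SE 0.773, adjusted p = 0.0338). These calls were lost without Day 0 mouse 1 or 2 or any 1 of the 4 later mice, with adjusted p of 0.0871 to 0.145 at Day 2 and 0.0744 to 0.0828 at Day 3. Of 7 alternative fits that kept every mouse, 5 kept each call, with the highest adjusted p at 0.112 and 0.0711. The lowest over all alternatives were 1.73e-05 and 0.000645. At Day 5 Dbp differed by 2.39 (SE 0.763) and did not pass (adjusted p = 0.0541). It passed without Day 0 mouse 3, at 2 (adjusted p = 0.0453), and without Day 0 mouse 4, at 3.5 (adjusted p = 0.012), was 2.05 (adjusted p = 0.0931) without the library labelled Day 5 mouse 1, and had adjusted p of 0.00601 to 0.209 over all alternatives. The female differences of Dbp were 2.00, 1.13 and 1.95 (SE 0.755, 0.689 and 0.748) and did not pass with Day 0 mouse 4, and were 3.25, 2.38 and 3.21 with adjusted p of 0.00348, 0.003 and 0.0138 without it. Over all alternatives the highest adjusted p on these days were 0.303, 0.484 and 0.509, and over the fits that kept every mouse the lowest were 0.0293, 0.156 and 0.0448.

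Per3, a period gene, had 6.24, 4.65, 2.66 and 10.4 CPM in the male Day 0 mice and 47.6, 46.1, 59.6 and 38.5 CPM in the male Day 2 mice. It rose by 3.02 (SE 0.377, adjusted p = 0.0142) at Day 2, 2.77 (SE 0.358, adjusted p = 0.00489) at Day 3 and 1.99 (SE 0.449, adjusted p = 0.0182) at Day 5. The Day 2 call was lost without Day 0 mouse 1 or 2 or Day 2 mouse 2, 3 or 4 (adjusted p 0.0519 to 0.0735), and the Day 5 call without Day 0 mouse 1 or 2 or Day 5 mouse 3 (adjusted p 0.0533 to 0.0590). Of 7 alternative fits that kept every mouse, 6 kept the Day 2 call, with the highest adjusted p at 0.0806. Per2 rose by 3.14 (SE 0.202, adjusted p = 0.000385) at Day 2 and by 2.75 (SE 0.210, adjusted p = 0.000855) at Day 3, and kept both calls without each mouse in turn. At Day 5 its 2.03 (SE 0.459, adjusted p = 0.0184) was lost without Day 0 mouse 1 or 2 or Day 5 mouse 3, and 6 of 7 alternative fits kept it (highest adjusted p 0.0598). In female mice Per2 was the 1 gene called, at Day 2, with 2.19 (SE 0.477, adjusted p = 0.0479). There, too, 6 of 7 alternative fits kept the call (highest adjusted p 0.0507).

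Ciart, a repressor of the ARNTL pair, rose by 3.51 (SE 0.481, adjusted p = 0.0207) in male mice at Day 2, a call lost without Day 0 mouse 1 or 2 or Day 2 mouse 2, 3 or 4 (adjusted p 0.0538 to 0.0918). Of 6 alternative fits that kept every mouse, 5 kept the call, with the highest adjusted p at 0.0868. Per1 had the largest change among the genes of the list called in male mice at Day 5, with 2.19 (SE 0.292, adjusted p = 0.00485), from 12.3 to 17.3 CPM at Day 0 to 35.1 to 83.5 CPM. Female mice had 44.9 to 75.6 CPM of Per1 at Day 0, above every male Day 0 mouse, and 51.4 to 109 CPM at Day 5. Of all genes, 6.17% did not overlap between the sexes at Day 0. Without the library labelled male Day 5 mouse 1 the male difference of Per1 was 2.03 (SE 0.289, adjusted p = 0.0017). Per2 and Per3 then differed by 1.66 and 1.67 (adjusted p = 0.0247 and 0.0255). Nr1d1, whose product represses through the RORE, did not pass in male mice, with 0.52 (SE 0.507), 0.46 (SE 0.494) and 0.69 (SE 0.477) at Day 2, Day 3 and Day 5 (the last 0.61 without the library labelled Day 5 mouse 1). It passed on all 3 days without male Day 0 mouse 4, at 1.3, 1.24 and 1.44 with adjusted p of 0.039, 0.0128 and 0.0141, against highest values of 0.775, 0.778 and 0.55 over all alternatives. Without male Day 0 mouse 3 the values were smaller, at 0.21, 0.17 and 0.40. In female mice the differences at Day 2, Day 3 and Day 5 were 0.95, 0.59 and 0.90 for Nr1d1, 1.7, 1.38 and 1.46 for Per3 and 0.84, 0.16 and 0.64 for Per1, and none passed (adjusted p from 0.0768, edgeR). Without female Day 0 mouse 4 the adjusted p of Per3 was 0.00263, 0.00193 and 0.00951 on these days, and Nr1d1 and Per1 passed at Day 2 and Day 5.

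**Figure D4:**
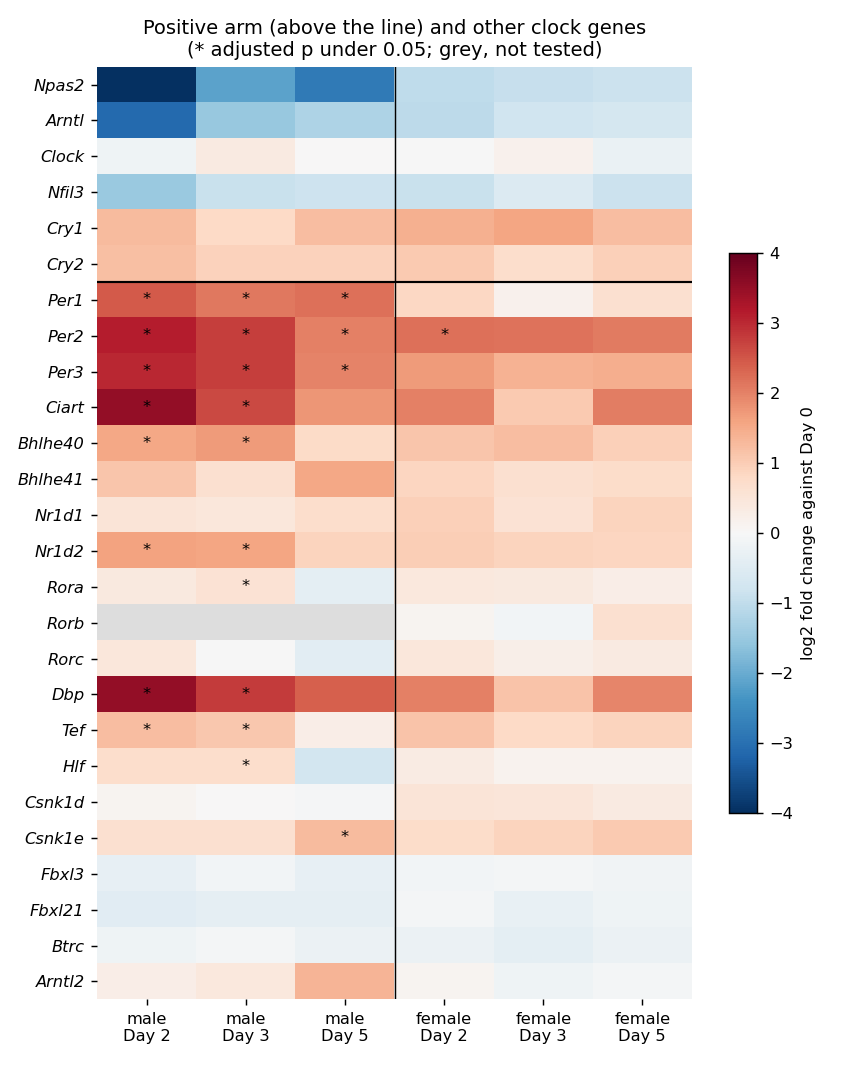
Log2 fold change from Day 0 (colour, blue lower and red higher) of the 6 genes above the line and the 20 other clock genes below it, for Day 2, Day 3 and Day 5 in male mice (left) and female mice (right). Asterisks mark an adjusted p under 0.05 and are drawn for the genes below the line only, and grey cells were not tested. In male mice 8, 10 and 4 of the other genes carry an asterisk, all of them higher.

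The genes whose levels ran most like Npas2 were sought among 13191 others with a mean of at least 1 CPM, by Pearson's r of log2 CPM over the 32 libraries, which share the group differences described above. The 5 closest were Ppard, a nuclear receptor of lipid metabolism (r = 0.818), Arntl (0.810), 2210011C24Rik (0.751), Palm3 (0.722) and the ubiquitin-conjugating enzyme Ube2a (0.714). Taken within groups, as differences from each group's mean, r was 0.679 for Ppard but 0.354 for Arntl and 0.173 to 0.227 for the other 3. Over the 24 libraries without Day 5 the order of the first 2 turned round, with r of 0.918 for Arntl and 0.818 for Ppard. Arntl in turn ran closest to Npas2, followed by the RNA polymerase III subunit Crcp (0.733), the diphthamide synthesis gene Dph5 (0.721), Ppard (0.716) and Palm3 (0.707). At the other end, Npas2 had its lowest r with Bhlhe41 (−0.785), another repressor of the ARNTL pair, and Arntl with Ciart (−0.763). These r are descriptions over libraries that share days and sexes.

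**Figure D5:**
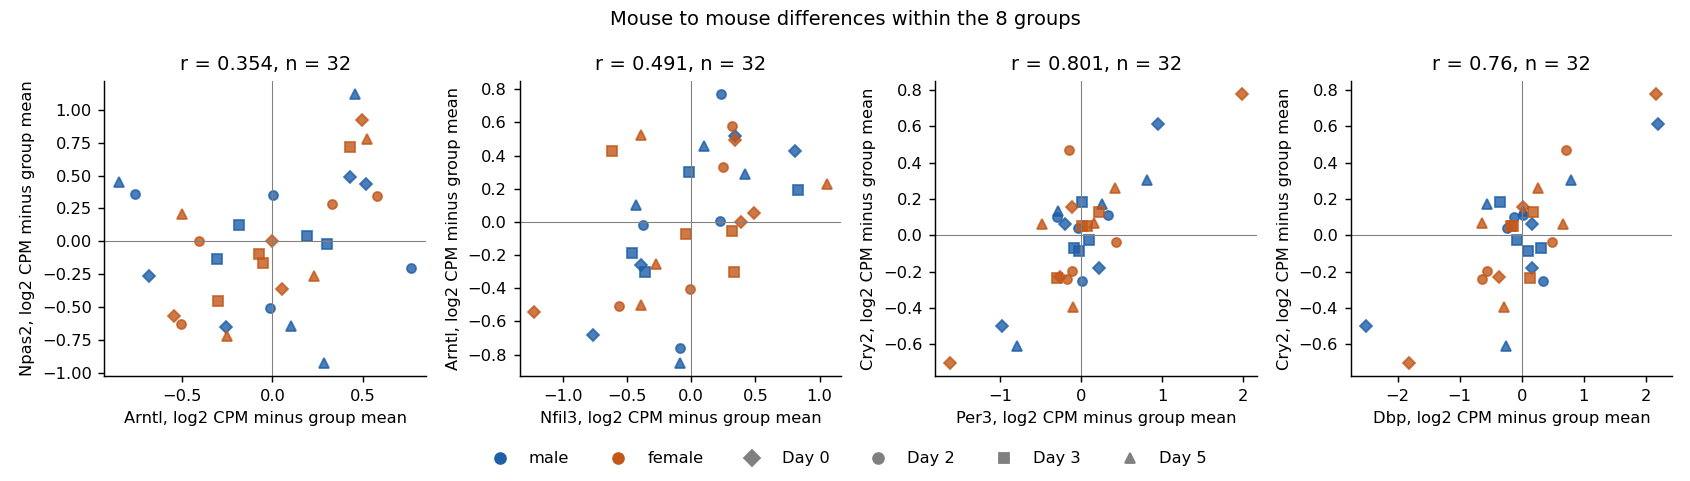
Log2 CPM of each mouse minus the mean of its group, for 4 pairs of genes over 32 mice. Colour gives the sex and shape the day. Cry2 is higher in mice with more Per3 (r = 0.801) and more Dbp (r = 0.76), where the outermost points are Day 0 mice.

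Within the 8 groups, mice with more Arntl tended to have more Nfil3 (r = 0.491, n = 32, and 0.301 without the Day 0 mice) and less Cry2 (r = −0.461) and Dbp (r = −0.466). Among the other members and Dbp, Nr1d1 and Per3, the only genes compared here, Cry2 was closest to Per3 (r = 0.801) and Dbp (r = 0.760). These 2 values leaned on the Day 0 mice, since r was 0.539 and 0.375 over the 24 mice of Day 2, Day 3 and Day 5, and the r of Cry2 with Nr1d1 was 0.594 with and −0.042 without Day 0. The r of Arntl with Dbp was −0.786 without the Day 0 mice. Nfil3 and Nr1d1 had an r of −0.553, and −0.586 without Day 0. Npas2 and Clock, the alternative partners of ARNTL, had an r of −0.0526 over 32 mice.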

How the data were processed

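The table that the authors deposited holds unnormalized read counts of 54532 genes, and a second one holds FPKM values, which divide each count by gene length in kilobases and by an effective library size. Submitters' notes list HTSeq, DESeq2 and mm39, whereas the study names GRCm38; 53499 of 54409 genes (98.3%) had the coordinates of a GENCODE annotation of GRCm38, which was used. The aligner, annotation release and strand setting are not given in the sources used here. No 2 libraries held identical counts.

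Counts were tested with the quasi-likelihood test of edgeR 4.0.16 in R 4.3.3 (TMM, filterByExpr, robust dispersions), each comparison being fitted on the groups it compares, with Benjamini-Hochberg adjusted p under 0.05 as the threshold. Log2 CPM used a prior count of 2. SE denotes the standard error of a log2 fold change. It was computed as the size of the change divided by the square root of the F statistic of its test. The test was tried on simulated counts first. The alternatives were DESeq2 size factors, the Wald test of DESeq2 1.42.0, no low-count filter, at least 10 counts in every library, a replicate block by mouse number, 1 fit over all 8 groups, an added threshold of 1.5 on the log2 fold change, mitochondrial genes left out, and each mouse left out. Correlations were repeated without Day 5, on log2(FPKM + 0.1) and, added after the values were seen, without Day 0. The deposited FPKM gave levels between genes.

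The members and lists were chosen with earlier results of these data known. Tests of Npas2 between days and sexes, and of the members in the interaction, were planned and run but their p-values are not given, since they draw on the levels that chose the group. Genes named beyond the 6 are Dbp, Nr1d1 and Per3, the 3 most changed of the list called in each comparison with Day 0, and the 5 genes most like Npas2 and Arntl. Libraries of 1 group are separate mice. Counts outside the mitochondrial genes ran from 3780528, in male Day 5 mouse 3, to 34345113 per library.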

Additional observations from a re-analysis of the deposited data

Results flagged for a closer look

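Among 48 sets of 4 mice (6 genes in 8 groups), 5 held 1 mouse whose distance to the nearest other mouse passed Dixon's critical value as a share of the whole range on the log2 CPM scale, which chance does in about 1 in 20 sets. Nfil3 was 5.37 CPM in female Day 0 mouse 4 against 16.0 to 17.7 CPM in the other 3, and 14.3 CPM in female Day 5 mouse 1 against 5.17 to 5.63 CPM. Cry1 was 3.31 CPM in male Day 2 mouse 1 against 7.59 to 8.44 CPM, and 2.48 CPM in female Day 3 mouse 2 against 7.04 to 8.53 CPM. Clock was 17.6 CPM in female Day 5 mouse 3 against 28.2 to 30.7 CPM. Without male Day 2 mouse 1 the log2 fold change of Cry1 from Day 0 was 1.49 (SE 0.389) in place of 1.26 (SE 0.418).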

How the results depend on the processing

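Differences from Day 0 of the 6 members and the 6 other clock genes named, and the other differences given for single genes with an adjusted p, kept their direction under the alternatives and without each mouse, except for Clock in male mice at Day 5 and in female mice at Day 2 and Day 5, which lay near 0. Differences given only as a range over several members were not all followed, and some changed sign without 1 mouse, such as Cry2 between the sexes at Day 0 (0.18 without female Day 0 mouse 4). Counts of the 6 members called moved by over 1.5 times as follows, and nothing is read from those against Day 0, in the interaction or through Npas2. Those between later days and between the sexes, here and in the paragraphs below, stand without the share of all genes called. Nothing is read from them either. The Wald test of DESeq2 called 5 in male mice at Day 2 against Day 0, 3 in female mice at Day 2 and 2 at Day 3, 2 in male mice at Day 3 against Day 2, 1 between the sexes at Day 0 and 3 at Day 2, and 1 in the interaction at Day 2. The fit over all 8 groups called 3, 2 and 1 in female mice at Day 2, Day 3 and Day 5, 0 in male mice at Day 5 against Day 3, 1, 0 and 0 between the sexes at Day 0, Day 2 and Day 3, and 1 in the interaction at Day 2 and at Day 5. No low-count filter gave 1 in female mice at Day 2, 1 in male mice at Day 3 against Day 2, 0 at Day 5 against Day 3 and 2 between the sexes at Day 2. The added threshold of 1.5 gave 1 in male mice at Day 5, 0 at Day 5 against Day 3 and 0 between the sexes at Day 3. Of the 20 other clock genes, DESeq2 called 7 in male mice at Day 5 and 5, 4 and 3 in female mice at Day 2, Day 3 and Day 5, the fit over all 8 groups 9, 8, 6 and 5 in the same order, no filter 3 (Day 2) and 1 (Day 3) in female mice, and at least 10 counts 3 and 2. Shares of all genes called moved too. Against Day 0 they were 3.16% to 24.5% in male and 0.258% to 5.54% in female mice as reported, 18.4% to 35.4% and 5.1% to 21.9% under DESeq2, 12.9% to 31.1% and 10.9% to 23.4% over all 8 groups, 1.13% to 8.62% and 0.625% to 3.41% with no filter, 5.45% to 29.8% and 0.429% to 12.2% with at least 10 counts, and 0.0312% to 13% and 0.0% to 0.314% with the replicate block.

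In 0 of 14 comparisons did every same-numbered pair deviate together at r over 0.1 (r −0.415 to 0.481), so mouse numbers were not taken to pair the samples. Between the sexes at Day 0, however, the pairs of mice 1 to 4 had r of 0.272, −0.0737, 0.444 and 0.481. With the mouse number as a replicate block, 1 member was called in male mice at each of Day 2, Day 3 and Day 5, 0 at Day 5 against Day 3, and 1, 0 and 2 between the sexes at Day 0, Day 2 and Day 3. Of the other clock genes the block called 2 and 6 in male mice at Day 2 and Day 3 and 0 and 1 in female mice at Day 2 and Day 5. The causes of these shifts were not tested.

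With each mouse left out in turn, the members called ranged from 1 to 4 in male mice at Day 2, 2 to 4 at Day 3 and 1 to 3 at Day 5, from 0 to 5, 0 to 5 and 0 to 1 in female mice, from 0 to 1 in male mice at Day 3 against Day 2 and at Day 5 against Day 3, from 0 to 1 between the sexes at Day 2, 1 to 3 at Day 3, and 0 to 1 in the interaction at Day 2. The other clock genes ranged from 2 to 9, 9 to 11 and 1 to 7 in male mice and from 0 to 11, 0 to 10 and 0 to 10 in female mice. Without the Day 0 mice, r within groups changed sign for 10 of 33 pairs, to −0.32 for Clock and Cry2, 0.151 for Nfil3 and Cry2, −0.473 for Clock and Dbp, −0.479 for Clock and Nr1d1, −0.042 for Cry2 and Nr1d1, 0.0191 for Nfil3 and Per3, 0.113 for Clock and Nfil3, −0.0809 for Npas2 and Nfil3, 0.0756 for Npas2 and Clock, and 0.183 for Arntl and Clock. DESeq2 size factors moved the median of all genes by at most 0.03 on the log2 scale. Leaving out mitochondrial genes moved it by at most 0.04 and the fit over all 8 groups by at most 0.05. Both scalings centre the bulk of genes, so this median cannot show whether scaling matters for single genes. Depth limits Npas2 most, which had as few as 6 counts in a male Day 5 library.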
